A study of Mus musculus with 2 samples.

Results

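Granule genes of neutrophils were examined in tumour-infiltrating M-MDSCs, monocytic myeloid-derived suppressor cells, from mice on a normal-salt diet (NSD) or a high-salt diet (HSD). The 10 genes were Mpo, Elane, Prtn3 and Ctsg of the primary granules, Ltf, Camp, Ngp, Lcn2 and Chil3 of the secondary and later granules, and Cebpe, which encodes a transcription factor of granule formation. They were found through the RefSeq transcript that each array probe was designed on, which gave 11 of the 39413 probes and 10 of the 20653 genes that could be named. Female BABL/c mice had been starved for 1 day, injected under the skin with 1000000 4T1 cells, a mouse mammary carcinoma line, and kept for 16 days on NSD, with 0.4% NaCl in chow and tap water, or on HSD, with 4% NaCl in chow and 1% NaCl in the water. The cells were taken from the tumours on magnetic beads with antibodies to Gr-1 or Ly-6G, and those of a diet group were mixed in equal numbers before RNA was extracted. Each group is therefore 1 pool of cells on 1 one-colour Agilent array, and no spread between mice, no test of the diet and no p-value can be had.

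Neutrophils fill their granules in waves while they mature in the bone marrow. Promyelocytes make the primary, or azurophil, proteins, which include myeloperoxidase and the serine proteases elastase, proteinase 3 and cathepsin G. Myelocytes and later stages make the secondary, or specific, proteins, such as lactoferrin and the cathelicidin precursors, under the control of C/EBPε. Early monocytic cells can also carry transcripts of the primary proteins, and Lcn2 and Chil3 are also made outside neutrophils, Lcn2 by epithelial cells and Chil3 by macrophages.

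Both arrays lay on the same slide and were read in 1 scan. No spot was saturated, and the brightest non-control probe reached 80181 intensity units in NSD and 77505 in HSD. Each array's 75th percentile, 252 units for NSD and 233 for HSD, was used to scale the arrays, so that a log2 fold change is the scaled HSD value minus the scaled NSD value. A gene was counted as higher or lower if either array read it well above background and the difference was 1.5-fold or more. Of 16312 genes with a usable probe, 1608 were higher and 1682 were lower in HSD, which makes 48.9% of these differences higher. This share was 38.5% with cyclic loess and 32.7% without scaling between the arrays, and leaving out the scaling moved the median log2 fold change of all genes from 0.045 to -0.070. The 11 granule gene probes were each printed in 1 spot per array, and all of them read well above background in NSD and in HSD. The error given with a signal is that of the scanner software's error model, which came to 0.20 or 0.21 for the log2 fold change of each granule gene and covers the measurement of a spot, not mice or cell preparations. Probes printed in at least 5 spots and as bright as the dimmest granule gene had a median SD between spots of 0.056 on the log2 scale in NSD (173 probes) and 0.070 in HSD (171 probes). The highest SD among these probes was 0.22 in NSD and 0.56 in HSD.

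The RefSeq promoter table of GRCm38.p6 held 9 of the 10 genes, all but Cebpe. The 250 bases before the annotated start are printed for the primary granule genes, whose values fell into separate pairs, with the letters GAGGAA in capitals where they stand on either strand. These letters are the core of sites bound by PU.1, a myeloid transcription factor.
Mpo, chr11:87793534-87793783, plus strand: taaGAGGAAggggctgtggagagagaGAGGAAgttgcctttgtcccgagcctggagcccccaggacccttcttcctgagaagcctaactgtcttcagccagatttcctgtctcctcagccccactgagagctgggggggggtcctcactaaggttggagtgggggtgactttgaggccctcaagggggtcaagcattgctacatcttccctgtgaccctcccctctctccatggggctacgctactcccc
Ctsg, chr14:56102575-56102824, minus strand: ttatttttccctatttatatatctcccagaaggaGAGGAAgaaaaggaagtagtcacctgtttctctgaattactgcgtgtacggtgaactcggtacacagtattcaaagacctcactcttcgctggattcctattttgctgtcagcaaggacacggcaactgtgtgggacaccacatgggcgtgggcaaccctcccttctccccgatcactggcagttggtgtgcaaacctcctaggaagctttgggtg
Elane, chr10:79886062-79886311, plus strand: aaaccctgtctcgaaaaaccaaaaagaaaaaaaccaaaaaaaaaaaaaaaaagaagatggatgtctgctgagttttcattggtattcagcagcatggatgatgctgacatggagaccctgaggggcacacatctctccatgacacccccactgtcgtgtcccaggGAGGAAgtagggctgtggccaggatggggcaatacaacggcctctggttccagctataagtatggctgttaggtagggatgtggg
Prtn3, chr10:79879417-79879666, plus strand: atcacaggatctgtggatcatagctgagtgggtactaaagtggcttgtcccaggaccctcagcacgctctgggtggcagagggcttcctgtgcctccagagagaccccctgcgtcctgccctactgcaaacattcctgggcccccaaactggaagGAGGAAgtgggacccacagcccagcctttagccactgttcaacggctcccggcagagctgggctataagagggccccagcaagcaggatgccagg
The letters were present before 4 of 4 primary granule genes, always in the direction of the gene. They were present before 2 of 5 secondary and later genes, Ltf and Lcn2, in the opposite direction. Of all 32851 promoter entries, 23.3% held them on either strand in a window of the same length, and the share by direction was not counted. Mpo held them at 247 and 224 bases before the start, Ctsg at 216, Prtn3 at 95 and Elane at 85. Whether these positions have to do with the fold changes was not tested. The windows of Prtn3 and Elane start 6645 bases apart on chromosome 10, where both genes run in the same direction.

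The letters TTGCNNAA, part of the site bound by C/EBP factors, were searched on both strands in the same windows. They were present before Ngp, Ltf and Lcn2, which are printed with the matches in capitals to set them beside the primary granule genes.
Ngp, chr9:110419558-110419807, plus strand: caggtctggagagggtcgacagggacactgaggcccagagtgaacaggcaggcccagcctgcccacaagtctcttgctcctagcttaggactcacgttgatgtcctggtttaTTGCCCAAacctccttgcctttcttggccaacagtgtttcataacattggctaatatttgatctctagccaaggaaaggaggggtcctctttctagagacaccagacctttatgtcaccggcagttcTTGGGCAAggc
Ltf, chr9:111019042-111019291, plus strand: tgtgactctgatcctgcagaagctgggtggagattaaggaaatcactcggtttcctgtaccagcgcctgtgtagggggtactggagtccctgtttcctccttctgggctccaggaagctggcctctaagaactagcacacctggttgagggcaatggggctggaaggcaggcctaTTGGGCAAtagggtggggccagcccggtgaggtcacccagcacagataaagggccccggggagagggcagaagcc
Lcn2, chr2:32387740-32387989, minus strand: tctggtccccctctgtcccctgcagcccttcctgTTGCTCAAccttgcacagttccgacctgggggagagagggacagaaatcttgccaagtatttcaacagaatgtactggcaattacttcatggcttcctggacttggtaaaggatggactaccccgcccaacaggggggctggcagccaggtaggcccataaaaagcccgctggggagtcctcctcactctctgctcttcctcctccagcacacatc
A match was seen before 3 of 5 secondary and later genes and before 0 of 4 primary granule genes, against 9.56% of all promoter entries. No match of TTGCNNAA overlapped one of GAGGAA. A match describes the letters of a window and is no measurement of binding.

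**Figure D1:**
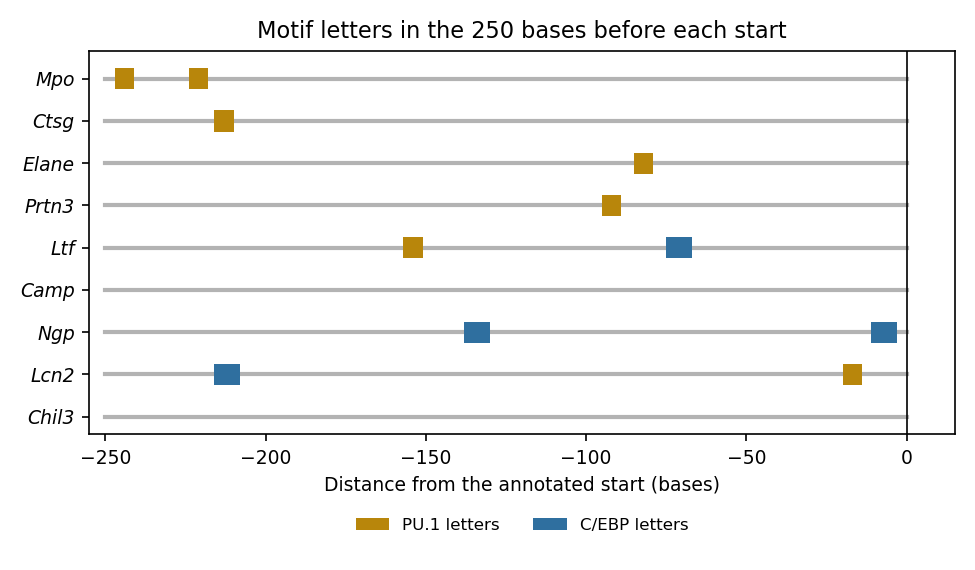
Positions of the letters GAGGAA (PU.1) and TTGCNNAA (C/EBP), on either strand, in the 250 bases before the annotated start of the 9 granule genes with a promoter entry; the x axis is the distance from the start in bases. The primary granule genes Mpo, Ctsg, Elane and Prtn3 hold only the PU.1 letters, Ngp only the C/EBP letters, Ltf and Lcn2 both, and Camp and Chil3 neither.

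Among the primary granule genes, Mpo and Ctsg were close to 2-fold lower in HSD, while Elane and Prtn3 differed by less than their error. Mpo encodes myeloperoxidase, the enzyme that makes hypochlorous acid from hydrogen peroxide and chloride. Its signal was 3536 ± 354 intensity units in NSD and 1723 ± 172 in HSD, a log2 fold change of -0.92 ± 0.20, or 1.90-fold lower. Ctsg encodes cathepsin G, a chymotrypsin-like protease. Its signal was 1733 ± 173 in NSD and 807 ± 80.7 in HSD, a log2 fold change of -0.99 ± 0.20, or 1.98-fold lower. For both genes the HSD signal lay below the NSD signal by more than the errors of the arrays together. Mpo and Ctsg stayed at least 1.5-fold lower under all 9 other settings that give a fold change for each gene, with log2 fold changes of -1.04 to -0.90 for Mpo and -1.12 to -0.97 for Ctsg. Each has 1 probe in 1 spot per array, so keeping flagged spots or taking the median over probes could hardly move it.

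Elane, which encodes neutrophil elastase, had a signal of 1606 ± 161 units in NSD and 1412 ± 141 in HSD, a log2 fold change of -0.071 ± 0.20. Prtn3, which encodes proteinase 3, was the dimmest of the granule gene probes, with 90.6 ± 9.11 units in NSD and 81.3 ± 8.19 in HSD, a log2 fold change of -0.041 ± 0.21. These neighbouring genes, which share the GAGGAA letters with Mpo and Ctsg, thus differed from that pair in size of change. The log2 fold change of Mpo lay below that of Elane by a difference of -0.85 ± 0.29, and that of Prtn3 lay above that of Ctsg by 0.95 ± 0.29. Over the 4 genes the median log2 fold change was -0.50, and 2 of the 4 were at least 1.5-fold lower, beside 10.3% of all genes. All 4 values were below 0, as were those of 7463 of all 16312 genes. The signs of the 4 stayed the same under each of the 9 other settings, which use the same 2 arrays. Elane and Prtn3 lay within their error of 0 at the main setting.

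**Figure D2:**
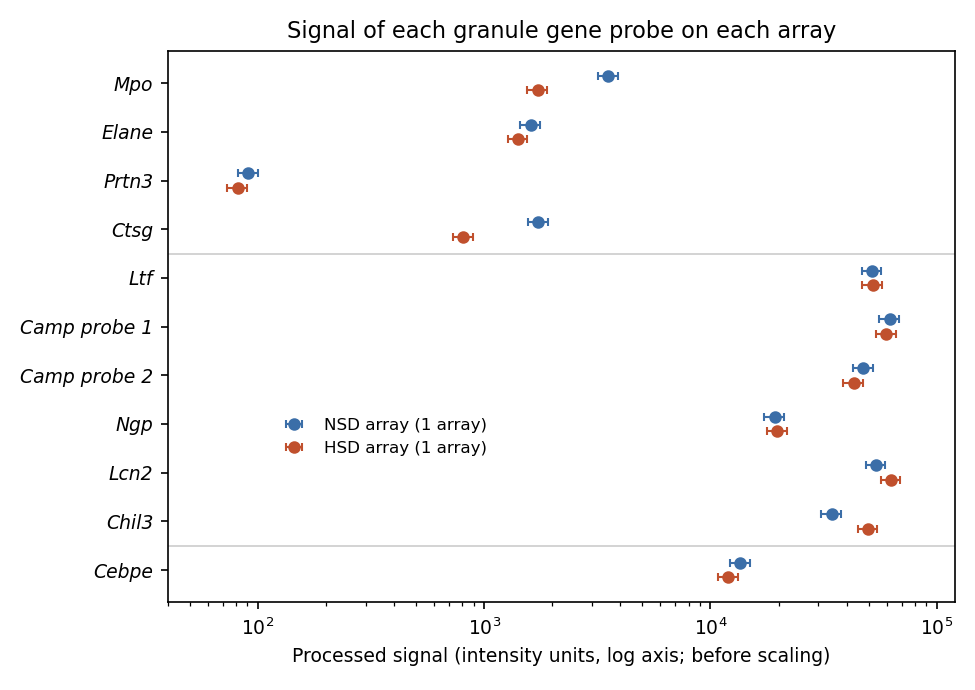
Processed signal of each granule gene probe on the NSD array (blue) and the HSD array (orange), in intensity units on a log axis before scaling, with bars for the scanner software's error. The points of Mpo and Ctsg are apart with HSD lower, those of Chil3 are apart with HSD higher, and the error bars of the other probes overlap.

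None of the 5 secondary and later granule genes was 1.5-fold or more lower in HSD, and 1, Chil3, was that much higher. Of all genes, 10.3% were lower and 9.86% higher, so the counts lie near these shares. Ltf encodes lactoferrin, an iron-binding protein, and its signal was 51766 ± 5177 units in NSD and 51993 ± 5199 in HSD, a log2 fold change of 0.12 ± 0.20. Camp encodes the precursor of the antimicrobial peptide CRAMP and had 2 probes. The brighter probe gave 61817 ± 6182 units in NSD and 59919 ± 5992 in HSD, and the other gave 47327 ± 4733 in NSD and 42924 ± 4292 in HSD. Their log2 fold changes were 0.069 ± 0.20 and -0.027 ± 0.20, so the probes differed from each other by less than their error. Ngp encodes neutrophilic granule protein, a relative of the cathelicidins, and its signal was 19224 ± 1922 units in NSD and 19703 ± 1970.3 in HSD, a log2 fold change of 0.15 ± 0.20. The signs of Ltf and Camp depended on the scaling, with values down to -0.030 for Ltf and -0.085 for Camp under cyclic loess, and Ngp ranged from 0.018 to 0.16.

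Lcn2 and Chil3 had the higher values within this class. Lcn2 encodes lipocalin-2, which binds bacterial siderophores and so keeps iron from bacteria. Its signal was 53909 ± 5391 units in NSD and 62682 ± 6268 in HSD, a log2 fold change of 0.33 ± 0.20, below 1.5-fold under every setting run. Chil3 encodes a chitinase-like lectin, Ym1, and its signal was 34255 ± 3426 units in NSD and 49710.3 ± 4971 in HSD. The log2 fold change of Chil3 was 0.65 ± 0.20, or 1.57-fold higher, just past the 1.5-fold limit. With quantile normalization it was 0.56, with cyclic loess 0.50, with the authors' deposited values 0.55 and without scaling 0.54, all short of 1.5-fold. Chil3 was higher in HSD under all 9 other settings, and past 1.5-fold under 5 of them.

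Cebpe, the regulator, had a signal of 13555 ± 1355 units in NSD and 11991 ± 1199 in HSD. Its log2 fold change was -0.062 ± 0.20, and it lay between -0.19 and -0.056 under the other settings.

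Counted together, 1 of the 10 genes was higher by 1.5-fold or more and 2 were lower. Of all 16312 genes, 9.86% were higher and 10.3% lower by this measure, 20.2% in all. The brightest 3263 genes hold 9 of the 10 granule genes, all but Prtn3, and of these genes 8.06% were higher and 5.55% lower, 13.6% in all. At a 2-fold limit, run at the main scaling only, 0 of the 10 granule genes were counted, beside 2.62% of all genes higher and 4.17% lower. At 1.5-fold the higher count lies near the shares given. The lower count, 2 of 10, lies above 10.3% and 5.55%, but with 10 genes it rests on Mpo and Ctsg alone. The median log2 fold change of the 10 genes was 0.014, beside 0.045 for all genes, and its sign changed with the scaling. The median log2 fold change of the secondary and later genes was 0.15 and that of the primary genes was -0.50, a distance of 0.65 that ranged from 0.60 to 0.65 over 10 settings. A scaling that adds 1 constant to an array cannot change this distance. It was 0.63 with the normexp correction, quantile normalization and the deposited values, and 0.60 with cyclic loess. The classes also differ in brightness, with signals of 81.3 to 3536 units for the primary genes and 19224 to 62682 for the secondary and later genes. Whether brightness bears on the distance was not tested. The primary median lies between the pair of Mpo and Ctsg and the pair of Elane and Prtn3, and the distance rests on Mpo and Ctsg. Elane and Prtn3 lay within the error of Ltf, Camp and Ngp, with differences of -0.19 ± 0.29 for Elane minus Ltf, -0.22 ± 0.29 for Elane minus Ngp and -0.11 ± 0.29 for Prtn3 minus Camp. Against Chil3 the difference was -0.72 ± 0.29 for Elane and -0.69 ± 0.29 for Prtn3. By contrast, the log2 fold change of Ctsg lay below that of Ltf by a difference of -1.11 ± 0.29, and that of Mpo by -1.04 ± 0.29. In pooled cells, fewer cells of a type and less RNA per cell cannot be told apart.

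**Figure D3:**
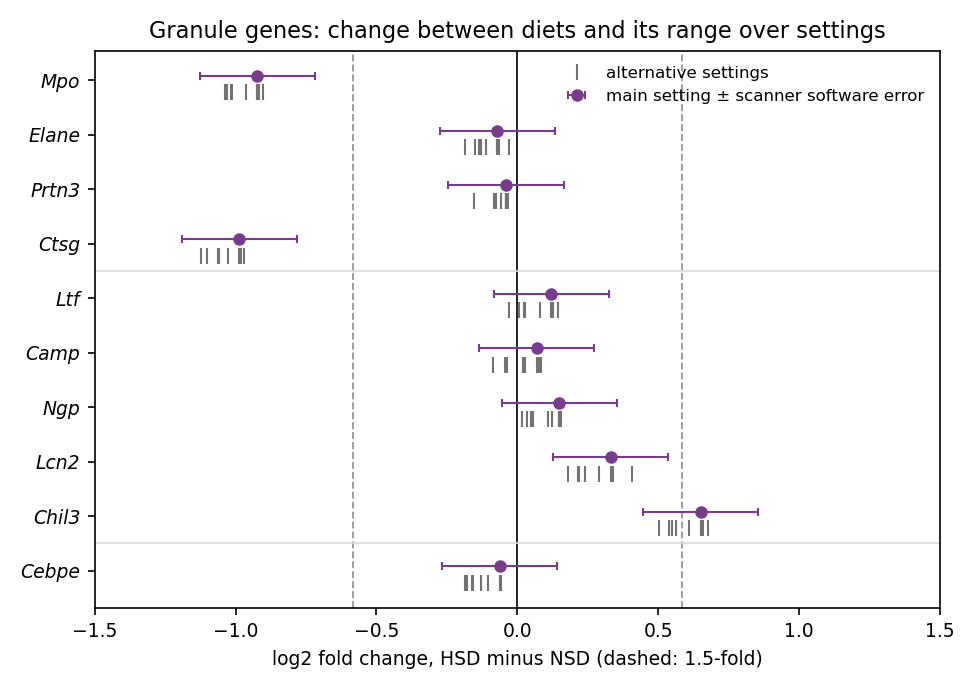
Log2 fold change (HSD minus NSD) of the 10 granule genes at the main setting, with bars for the scanner software's error, and its values under the 9 other settings as grey ticks; the dashed lines mark 1.5-fold. Mpo and Ctsg lie beyond the lower line under every setting, Chil3 lies on either side of the upper line, and the other 7 genes lie between the lines.

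Further genes of the granules were followed beside the members. Of 7 further primary granule genes, 0 were at least 1.5-fold higher and 1 was at least 1.5-fold lower, beside 9.86% and 10.3% of all genes, so the count lies near the share of all genes. Their median log2 fold change was 0.066. The lower gene was Gusb, which encodes the lysosomal enzyme β-glucuronidase, with 1704 units in NSD and 994 in HSD over 10 spots per array (log2 fold change -0.66). Ms4a3, a gene of granulocyte and monocyte progenitors, had 545 units in NSD and 503 in HSD (log2 fold change -0.0024). Prss57, which encodes a serine protease related to elastase and proteinase 3, was dim, with 23.8 and 30.8 units (log2 fold change 0.48, or 0.14 with the normexp background correction). Of 10 measured genes of the secondary, gelatinase and later compartments, 0 were past 1.5-fold in either direction, beside 20.2% of all genes. Their median was 0.20, and it was between 0.08 and 0.20 over the settings. Of the 10 values 8 were above 0, as were 8849 of the 16312 values of all genes. Mmp8, the collagenase of specific granules, had a log2 fold change of -0.059, and Mmp9, the gelatinase, had 0.39 over 10 spots per array. Olfm4, also on this list, had no probe that could be named.

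Genes that act on the granule proteases were also followed. Serpinb1a, which encodes an intracellular inhibitor of elastase, proteinase 3 and cathepsin G, had 8256 units in NSD and 13663 in HSD, a log2 fold change of 0.84 ± 0.20, and was past 1.5-fold higher under all 9 other settings. Slpi, which encodes a secreted inhibitor of elastase and cathepsin G, had a log2 fold change of -0.0061. Ctsc encodes the peptidase that activates the granule proteases and had 0.21, Cst7 encodes cystatin F, an inhibitor of Ctsc, and had 0.42, and Srgn, the proteoglycan that packs granule proteases, had 0.30. Serpinb1a was thus the gene past 1.5-fold among these 5, beside 20.2% of all genes, and the median of the 5 was 0.30.

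Of the receptors and partners of granule proteins, 6 of 7 genes were usable, F2rl1 being dim in NSD and HSD. Past 1.5-fold, 1 was higher and 1 lower, beside 9.86% and 10.3% of all genes, and the median was 0.12. Fpr2 encodes a formyl peptide receptor that binds cathelicidin peptides, and it had 21167 units in NSD and 31277 in HSD (log2 fold change 0.68), past 1.5-fold under 5 of the 9 other settings. Lrp1, a scavenger receptor that takes up lactoferrin, had 248 and 127 units (log2 fold change -0.85), and was past 1.5-fold lower under all 9. Slc22a17, which encodes a receptor of lipocalin-2, had 43.7 and 36.7 units (log2 fold change -0.14). F2r, a protease-activated receptor gene, had 0.16. Itgam and Itgb2 encode the chains of the integrin Mac-1, and had log2 fold changes of 0.090 and 0.54.

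None of the 11 transcription factor genes of granulopoiesis and monocyte fate was past 1.5-fold in either direction, beside 20.2% of all genes. Their log2 fold changes ran from -0.10 to 0.37. Their median was 0.087. Spi1, which encodes PU.1, had 372 units in NSD and 403 in HSD (log2 fold change 0.23). Cebpa, which starts the granulocyte programme, had -0.097, Gfi1, a repressor needed for neutrophil maturation, had 0.087, and Myb had 0.37. The receptor genes of the colony-stimulating factors, 4 in all, gave 0 past 1.5-fold with a median of 0.22, and Csf3r, the G-CSF receptor, had 53939 units in NSD and 54723 in HSD (log2 fold change 0.14).

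Relatives of the granule genes differed among themselves. Chil4, the closest relative of Chil3, had 345 units in NSD and 831 in HSD, a log2 fold change of 1.38 that was past 1.5-fold under all 9 other settings. The probe sequences of Chil3 and Chil4 were not used here, so a share of signal from the other transcript was not tested. Chil1, a more distant member of that family, had 0.44. Epx, the eosinophil peroxidase gene related to Mpo, had 13.7 units in NSD and was not well above background in HSD, which makes it at least 2.76-fold lower, or -0.19 on the log2 scale with the normexp correction. Lpo, the lactoperoxidase gene, had a log2 fold change of 0.072. Mcpt8, a basophil protease gene of the same protease family as Ctsg, had 442 and 276 units (log2 fold change -0.57). Trf, the transferrin gene related to Ltf, had -0.34, and Gzmb, which encodes the serine protease granzyme B, had -0.44, or 0.018 with the normexp correction. Chia1, an acidic chitinase gene, was not well above background in NSD and at least 1.47-fold higher in HSD, and Meltf was dim in both. Among the 8 usable relatives, with a median of -0.14, Chil4 was the gene counted as higher and Epx the gene counted as lower. Of all genes, 9.86% were counted as higher and 10.3% as lower.

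**Figure D4:**
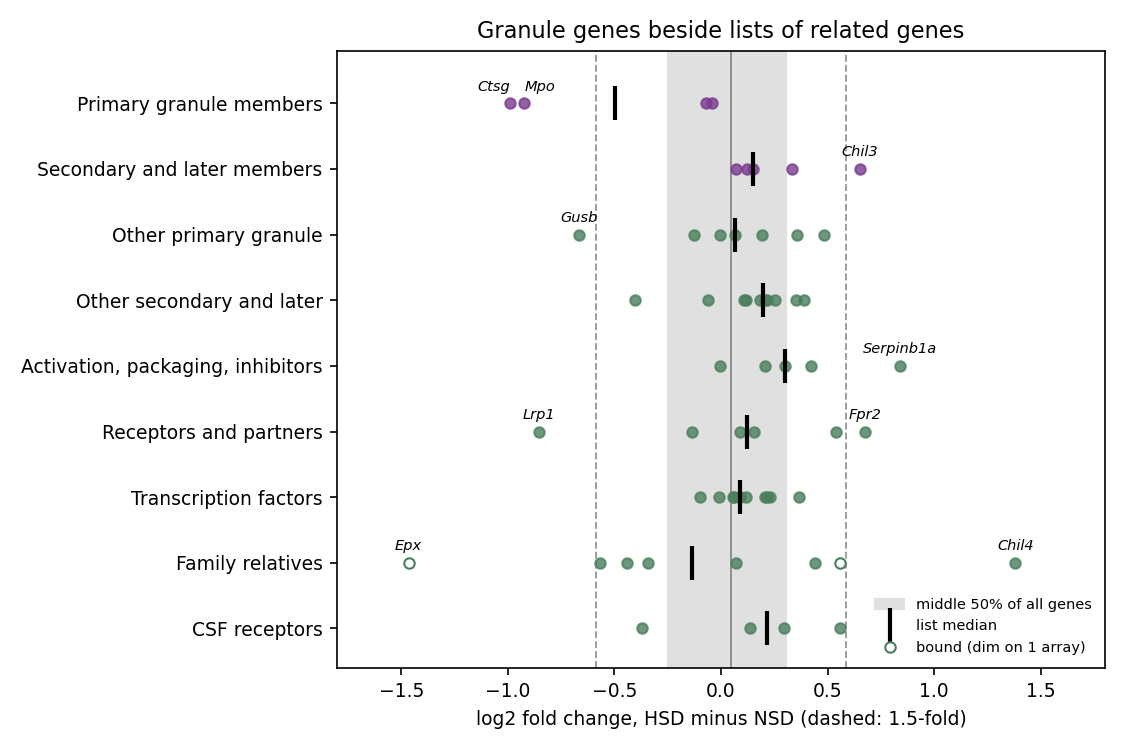
Log2 fold change (HSD minus NSD) of each usable gene in the granule gene classes (purple) and in 7 lists of related genes (green), with black bars for list medians, open points for values that are bounds, a grey band for the middle 50% of all genes (-0.25 to 0.31) and dashed lines at 1.5-fold. Genes past 1.5-fold are named; of the primary granule genes on both lists, Mpo, Ctsg and Gusb lie beyond the lower line.

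The labelled cell type was set against markers of cells the pools could hold. The marker lists were chosen with earlier results of these data known. Of all genes, 9.86% were at least 1.5-fold higher and 10.3% lower in HSD. Of 12 neutrophil markers, 11 had a named probe, Ly6g being the exception. All 11 read well above background in NSD and in HSD. Their summed signal, given before scaling here and for the lists below, was 294645 units in NSD and 288338 in HSD. After scaling, the log2 fold change of this sum was 0.083. Past 1.5-fold, 0 genes were higher and 1 was lower. S100a8 had 57914 and 56478 units (log2 fold change 0.078), and the lower gene was Il1r2 (log2 fold change -0.75). The granule gene signals were thus read beside well-measured neutrophil markers in pools labelled as M-MDSCs. Mmp8, Mmp9 and Cd177 are on this list and on that of further secondary and later granule genes, so the lists overlap. Which cells gave the signals was not tested. Of 8 monocyte markers, 7 had a named probe (not Ly6c2), and 2 were at least 1.5-fold lower. The sums were 112223 and 99721 units, a log2 fold change of -0.056 after scaling. Fcgr1 came to -3.68 on the log2 scale, which the normexp correction moved to -2.10. The probes of Ly6c1 disagreed, with 0.018 for the brighter and -0.42 for the other.

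Several macrophage markers had lower signals in HSD, as Mpo and Ctsg did. Of 8 genes, 7 had a named probe (not Cd68). Of these, 5 were at least 1.5-fold lower and 0 higher, beside 10.3% and 9.86% of all genes. The sums were 14188 units in NSD and 8678 in HSD, or -0.59 on the log2 scale after scaling. Apoe had a log2 fold change of -0.60 and Mrc1 of -4.50, or -1.57 with the normexp correction. C1qb had the opposite sign, with 50.4 and 58.4 units (log2 fold change 0.33), and Adgre1, at -0.55, was short of 1.5-fold. With the normexp correction 4 macrophage markers were lower, and C1qa came to -0.070. Of 5 eosinophil markers 3 were lower, with sums of 792 and 685 units, or -0.094 on the log2 scale after scaling. Il5ra had a log2 fold change of 0.28 and Prg2 of -1.65. With the normexp correction 1 of the 5 was lower, Prg2 at -1.01, and the list median went from -1.21 to -0.19. Among 7 mast cell and basophil markers 1 was lower, Cma1, at least 2.47-fold and not well above background in HSD. The sums were 1046 and 700.4 units, or -0.46 on the log2 scale after scaling. Cma1 was at -0.077 on the log2 scale with the normexp correction, which left 0 of these markers lower, while 3 were lower without scaling. Of 5 progenitor markers 1 was lower, Cd34, whose probes disagreed, with log2 fold changes of -0.97 and 1.20. The sums were 1382 and 1495 units, or 0.23 on the log2 scale after scaling. Most of these units came from Myb, with 1131 in NSD and 1346 in HSD (log2 fold change 0.37). The median of the 5 progenitor markers was -0.30, with 3 values below 0, among them Kit at -0.46, and 2 above. With the median over a gene's probes the list median was -0.095. The part of these cell types in the lower Mpo and Ctsg signals was not tested.

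Epithelial markers of the 4T1 cells, which could be a source of Lcn2, were dim. Their 6 probes summed to 72.3 units in NSD and 91.1 in HSD, with Krt19 not well above background on either array and Krt18 at 0.76 on the log2 scale, or 0.35 with the normexp correction. Krt14 had 0.069, and 3 of the 5 usable markers were at least 1.5-fold higher, beside 9.86% of all genes. This count was 0 with the normexp correction and 2 with quantile normalization, scaling on detected probes, cyclic loess, the deposited values and no scaling. Of the 4 B cell markers 0 were past 1.5-fold in either direction (Cd79b 0.33 on the log2 scale), and of the 5 T cell markers 1 was lower, Cd3e (log2 fold change -1.09, with 0.43 for Cd3d). The 3 usable erythroid markers gave 0 past 1.5-fold (Alas2 -0.31 on the log2 scale).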

How the data were processed

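RNA of M-MDSCs from 4T1 tumours was measured on 1 Agilent array per diet. The intensities that the authors deposited are the scanner output of Feature Extraction 11.0.1.1, in which the processed signal is corrected for background and spatial trends within the array and not normalized between arrays. The authors also deposited log2 values normalized in GeneSpring by a method that is not named. Both columns have a median of 4.61, a 75th percentile of 7.89 and the same highest value, 16.4. They were used as an alternative, which is close to the quantile setting, since that also gives both arrays the same distribution.

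Control spots and outlier spots by the scanner's flags (162 in NSD, 179 in HSD) were dropped, log2 of the processed signal was taken, spots of a probe were averaged and each array's 75th percentile over all probes was subtracted. A probe was called well above background when at least 50% of its spots were. Where it was so on 1 array only, the dim side was set to its own signal or, if larger, the lowest signal well above background, and the fold change is "at least" that (4.61 units for NSD, 4.39 for HSD). Transcript identifiers were matched without versions to RefSeq on GRCm38.p6, naming 27223 of the 39413 probes used (69.1%). The array was designed on an older assembly, and the only coordinates given are those of the promoter table. Of several probes of a gene the brightest was used. No test was run; precision is limited by there being 1 array per diet.

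The members, the 7 lists of related genes and the 10 lists of cell type markers were chosen with earlier results of these data known. Named were all members, the largest changes past 1.5-fold of each related list with the direct activators, inhibitors, receptors and relatives of the members, and the brightest and most changed gene of the marker lists; Ms4a3, Mmp8, Mmp9, Spi1, Cebpa, Gfi1, Myb, Csf3r, Srgn and Krt19 were named after their values were seen. Scripts that count genes were checked against simulated arrays. These had less noise than the scanner software's error and changes larger than 1.5-fold, so calls near the limit were not checked. Alternatives tried were limma's normexp (offset 50) on the median spot signal, since the files hold no mean signal, quantile normalization, cyclic loess, scaling on the median or on detected probes, the deposited log2 values, flagged spots kept, the median over a gene's probes, filters for probes on both arrays or none, and a 2-fold limit. The fold changes without scaling were added after the data were seen. Software was limma 3.58.1 in R 4.3.3, and numpy 2.4.6, pandas 2.3.3 and matplotlib 3.10.9 in Python 3.11.15.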

Additional observations from a re-analysis of the deposited data

How the results depend on the processing

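The lower values of Mpo and Ctsg held under every scaling and background correction run. At the main setting 1 granule gene (Chil3) was at least 1.5-fold higher. This count was 0 with quantile normalization, cyclic loess, the deposited log2 values and no scaling. A 2-fold limit, run at the main scaling only, left 0 higher and 0 lower. Mpo and Ctsg did lie past 2-fold lower with quantile normalization (log2 fold changes -1.02 and -1.06) and cyclic loess (-1.01 and -1.06). The same held with the deposited values (-1.03 and -1.12) and without scaling (-1.04 and -1.10). The median log2 fold change of the 10 genes, 0.014, was -0.040 with quantile normalization, -0.026 with scaling on detected probes, -0.071 with cyclic loess, -0.038 with the deposited values, -0.10 without scaling and -0.0098 with the median over a gene's probes, all smaller than the error of a single gene. Chil3 moved below 1.5-fold under 4 of 9 settings. Over all genes, the normexp correction left 628 higher and 657 lower, no filter on dim probes gave 2903 higher and 2212 lower, the 2-fold limit gave 428 higher and 681 lower, and without scaling 1101 were higher and 2271 lower. No paired analysis was possible because each diet has 1 array and the labels give no pairing. With 1 array per diet, no replicate could be left out, and no difference can be set against the variation between mice.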
